A study of Mus musculus with 9 samples.

Results

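The genes described here encode 10 matrix proteins grouped as proteoglycan core proteins. They were found by symbol among the 47729 genes of a table of synovial fibroblasts, cells that build the matrix of the joint lining, kept in culture. They are Acan, Vcan, Hspg2, Dcn, Bgn, Aspn, Lum, Fmod, Prelp and Ogn, and each matched 1 identifier. The 9 libraries came from wild-type BALB/c mice whose paws were digested with collagenase, and the fibroblasts were grown for 5 passages. Monosodium urate crystals, which deposit in gouty joints, had been injected into some paws. Paws of the 3 naive libraries were never injected. The 3 non-primed libraries are from right paws that received crystals on day 9 alone. The 3 primed libraries are from left paws that received them on both day 0 and day 9. Day 18 was the day of extraction in every group, and the RNA is that of the cultured cells. Paw side coincides with priming, primed and non-primed paws can belong to the same mouse, and no label names the animal, so p-values measure the spread between these libraries only. Comparing the groups asks what crystal inflammation, and an earlier bout of it, left behind in cells that were then cultured.

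A proteoglycan is a core protein that carries sulfated sugar chains. Aggrecan (Acan) and versican (Vcan) bind hyaluronan and form large hydrated aggregates, aggrecan mainly in cartilage and versican in loose connective tissue. Perlecan (Hspg2) carries heparan sulfate in basement membranes. The small leucine-rich proteins bind collagen fibrils: decorin (Dcn), biglycan (Bgn) and asporin (Aspn) form class I, lumican (Lum), fibromodulin (Fmod) and prolargin (Prelp) class II, and osteoglycin (Ogn) class III. In the joint they shape fibril thickness and hold growth factors such as transforming growth factor beta in the matrix.

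Several of the small leucine-rich genes lie side by side, and the stretches upstream of 4 of them are shown. These genes were picked for their values: Prelp for its difference from naive cultures, Aspn for its spread, and Ogn with its neighbour Omd for moving together. The Prelp difference did not pass the threshold given below. Each run holds the 250 bases before the RefSeq start on the gene's strand (GRCm38.p6), at chr1:133921402-133921651 on the minus strand for Prelp and on the plus strand at chr13:49544193-49544442 for Aspn, chr13:49582212-49582461 for Omd and chr13:49607765-49608014 for Ogn. They are promoter sequence upstream of the RefSeq transcript, and RefSeq gave such a stretch for 8 of the 10 genes. Capitals mark matches, on either strand, to TATAAA (the core of a TATA box), CCAAT or GGGCGG (a GC box).
Prelp: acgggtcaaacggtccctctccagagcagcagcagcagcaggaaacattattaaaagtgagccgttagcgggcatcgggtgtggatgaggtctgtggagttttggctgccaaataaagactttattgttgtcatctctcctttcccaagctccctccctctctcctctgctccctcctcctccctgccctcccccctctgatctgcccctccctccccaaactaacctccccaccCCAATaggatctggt
Aspn: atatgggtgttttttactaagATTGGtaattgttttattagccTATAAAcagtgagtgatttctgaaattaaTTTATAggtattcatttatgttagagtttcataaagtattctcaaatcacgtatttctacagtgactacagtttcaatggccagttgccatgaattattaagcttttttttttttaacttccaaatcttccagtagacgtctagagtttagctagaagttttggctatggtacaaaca
Omd: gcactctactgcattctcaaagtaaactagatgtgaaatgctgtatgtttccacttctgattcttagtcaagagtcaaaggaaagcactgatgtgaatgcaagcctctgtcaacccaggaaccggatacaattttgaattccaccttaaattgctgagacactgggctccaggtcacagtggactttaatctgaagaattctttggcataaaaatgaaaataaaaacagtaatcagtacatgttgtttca
Ogn: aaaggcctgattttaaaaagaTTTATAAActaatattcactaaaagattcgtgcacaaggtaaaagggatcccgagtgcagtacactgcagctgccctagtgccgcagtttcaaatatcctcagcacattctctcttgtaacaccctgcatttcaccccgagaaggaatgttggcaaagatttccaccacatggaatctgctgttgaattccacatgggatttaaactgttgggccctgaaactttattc
The Aspn stretch held TATAAA 2 times, 207 to 202 and 178 to 173 bases before the start, and CCAAT 1 time. The Ogn stretch held TATAAA 2 times, on opposite strands of overlapping bases 229 to 222 before the start. Prelp held CCAAT 1 time, 15 to 11 bases before the start, and Omd held none of the 3 motifs. Over 32851 such stretches in the genome, 12.4% held TATAAA, 33.8% CCAAT and 32.7% GGGCGG. The Hspg2 stretch held GGGCGG 5 times and 20 CG dinucleotides, where the median over all stretches was 6 dinucleotides. This was not special to Hspg2, since the aggrecan stretch held more of these dinucleotides (26) and the same motif 3 times. The motif was also found 3 times for Bgn and 2 times for Vcan. The dinucleotides numbered 10 for Vcan, 7 for Bgn, 5 for Prelp, 4 for Ogn, 2 each for Aspn and Fmod, and 1 for Omd. These are matches of letters only.

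The cultures were rich in RNA of the small leucine-rich genes. Levels are given as rlog, a shrunken log2 count, and for comparing genes the log2 of the exonic length in kilobases was subtracted. That length joins all annotated exons of a gene, and no transcript was singled out. It was 5838 bases for Dcn and 6099 for Bgn, against 2566 for Ogn and 2448 for Lum. Before subtraction Dcn had the highest mean of the set, 14.60, so the order depends on the length used. Per kilobase, Ogn (12.65) and Lum (12.44) stood highest, followed by Dcn (12.05), Bgn (11.89), Fmod (10.95), Aspn (10.32), Hspg2 (9.77), Vcan (9.55) and Prelp (9.30), as means of 9 libraries. The 4 leading genes each exceeded at least 98.3% of the 15576 tested genes with a known length. Their order is not firm, since Ogn lay above Lum in 4 of 9 libraries, Lum above Dcn in 7, Dcn above Bgn in 5, Hspg2 above Vcan in 6 and Vcan above Prelp in 7. Bgn lay above Fmod, Fmod above Aspn, and Aspn above Hspg2 in 8 libraries each. Acan was far below the others at -1.67.

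**Figure D1:**
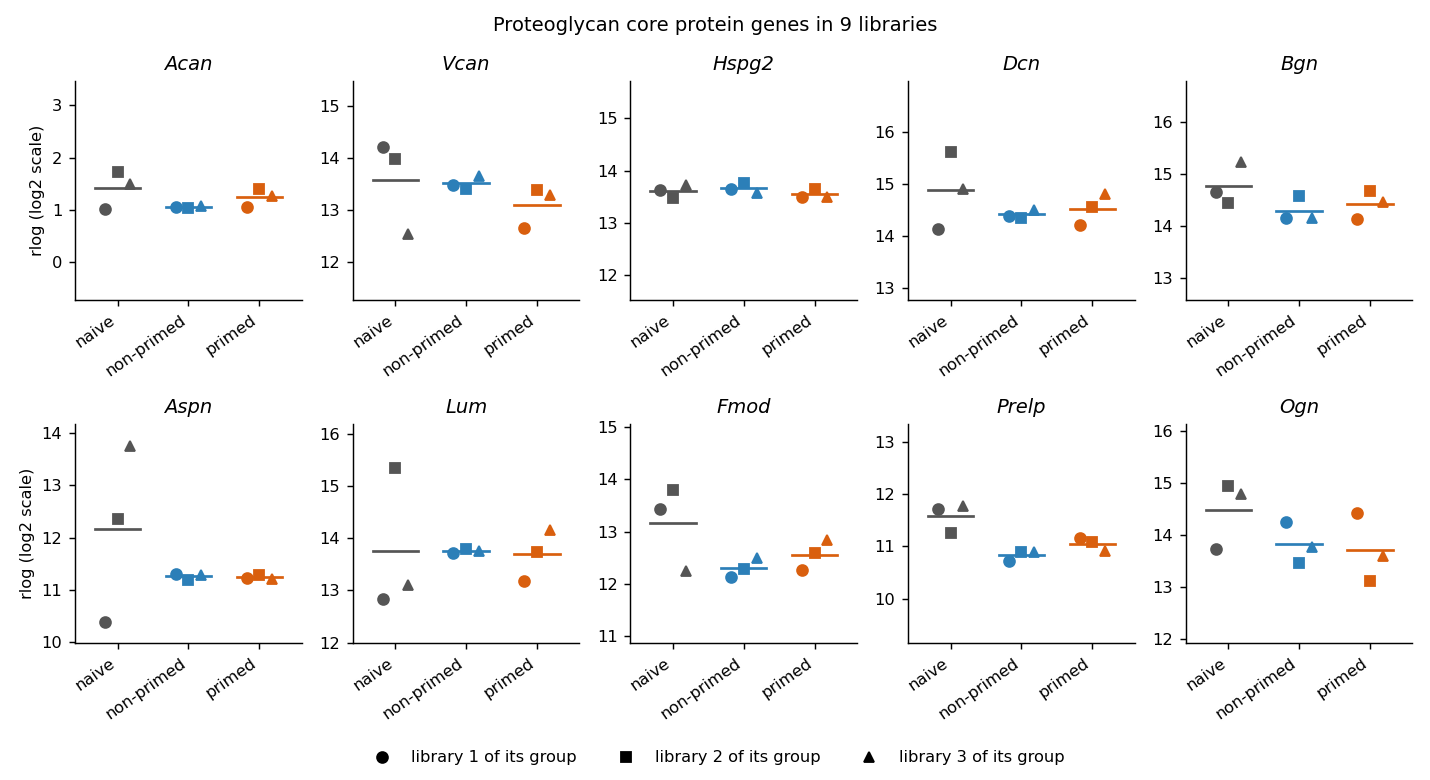
Level of each of the 10 genes in every library (rlog, log2 scale; every panel spans the same number of log2 units). Each point is a library, its shape gives the library's number and each line is the group mean. The naive points of Aspn run from 10.39 to 13.77 while its 6 injected points lie between 11.19 and 11.31, and every injected point of Prelp lies below every naive point.

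None of the 10 genes differed between groups past the threshold (limma, adjusted p below 0.05 over all tested genes). In non-primed against naive cultures 22 of 15623 tested genes passed (0.141%, with 0.0256% lower), in primed against naive 16 (0.102%, with 0.0064% lower, and 51 with the replicate number as a block) and in primed against non-primed 0 (0.0%). These numbers ran from 0 to 355, from 0 to 356 and from 0 to 0 when single libraries were left out. Acan was below the filter on low values, so 9 proteoglycan genes were tested. At an unadjusted p below 0.05 there were 2 of them in the first comparison (15.4% of all tested genes), 1 in the second (16.9%) and 0 in the third (1.26%). Groups of 3 libraries did not overlap in 1 of the 9 genes for each comparison with naive cultures, always with the injected group lower (10.3% of tested genes for non-primed and 8.18% for primed), so that count is near the background. No member was higher without overlap than in naive cultures (11.6% of tested genes in non-primed and 8.97% in primed ones). In primed against non-primed cultures, 1 gene was higher (6.31%) and 1 lower (5.25%) without overlap. With 3 libraries on each side the smallest two-sided p of an exact permutation test is 0.1. Both comparisons with naive cultures share the 3 naive libraries.

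Most differences from naive cultures were negative, although none passed. Non-primed means lay below naive means in 8 of the 9 tested genes, with a median difference of -0.48, and primed means in 9 of 9, with a median of -0.47. Over all tested genes the medians were 0.0088 and -0.0014, with 7552 and 7843 of 15623 genes lower. Between primed and non-primed cultures 4 of the 9 were higher and 5 lower, with a median of -0.022 against 0.0009 over all tested genes.

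**Figure D2:**
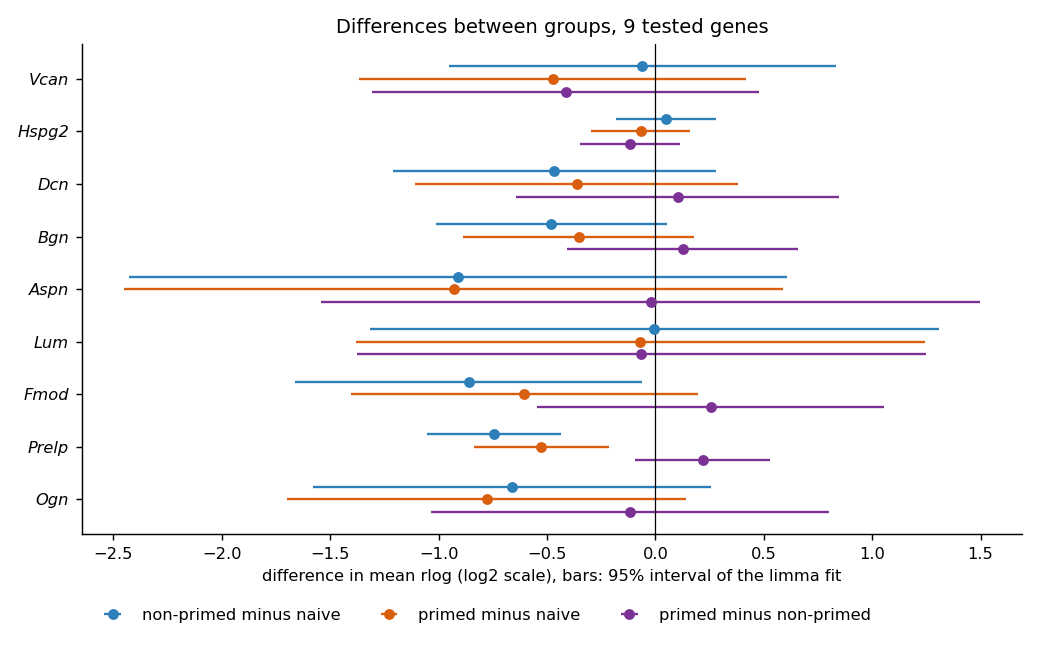
Difference in mean rlog (log2 scale) for the 9 tested genes in the 3 comparisons, with the 95% interval of the limma fit as bars. The intervals of Prelp against naive cultures and that of Fmod for non-primed cultures lie below 0, although neither gene passed after adjustment over all tested genes, and the interval of Hspg2 is the narrowest in each comparison.

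Aggrecan RNA was close to absent. Acan (ENSMUSG00000030607, chromosome 7, 79053483 to 79115099) had an rlog of 1.02, 1.71 and 1.49 in naive libraries 1 to 3, of 1.05, 1.03 and 1.07 in non-primed and of 1.06, 1.40 and 1.26 in primed ones. All 9 values lie below the bound of 3 used for testing, where the transformation draws values together. With no filter the differences were -0.36 (SE 0.16, limma adjusted p = 0.46) for non-primed and -0.17 (SE 0.16, adjusted p = 0.707) for primed against naive cultures.

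Versican was abundant and uneven among the naive cultures. Vcan (ENSMUSG00000021614, chromosome 13, 89655312 to 89742509) stood at 14.20, 13.99 and 12.55 in naive libraries, at 13.49, 13.41 and 13.66 in non-primed and at 12.66, 13.38 and 13.28 in primed ones. The low values were those of naive 3 and primed 1. Primed libraries lay below every non-primed library, by a mean of -0.41 (SE 0.39, 95% interval -1.31 to 0.48, limma adjusted p = 1.0). That SE rests on a spread shared with the naive libraries. A limma fit of these 2 groups alone with the library number as a block, chosen after seeing the data, gave an SE of 0.1457 (adjusted p = 0.49). Against naive cultures the differences were -0.06 (SE 0.39) for non-primed and -0.47 (SE 0.39) for primed cultures, and the first was 0.25 without naive 1 and 0.14 without naive 2. Without naive 3 they were -0.58 and -0.99 (adjusted p = 0.163 and adjusted p = 0.0666), and the second was -0.16 without naive 1 and -0.27 without naive 2.

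Perlecan varied least. Hspg2 (ENSMUSG00000028763, chromosome 4, 137468769 to 137570630) stood at 13.64, 13.47 and 13.72 in naive, 13.64, 13.76 and 13.57 in non-primed and 13.49, 13.64 and 13.49 in primed libraries. Its range over the 9 libraries was 0.29, against 1.04 to 3.38 for the 8 other tested genes. The groups overlapped, and the difference from naive cultures was 0.05 (95% interval -0.18 to 0.28) for non-primed and -0.07 (95% interval -0.30 to 0.16) for primed cultures. The first turned to -0.02 without naive 2 and to -0.0033 without non-primed 2.

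Among the class I genes, decorin was highest in naive 2. Dcn (ENSMUSG00000019929, chromosome 10, 97479609 to 97518143) stood at 14.13, 15.61 and 14.89 in naive libraries, at 14.38, 14.35 and 14.50 in non-primed and at 14.20, 14.54 and 14.80 in primed ones. Naive cultures held both the lowest and the highest value, so the injected groups lay within their span. The differences from naive cultures were -0.47 (SE 0.33, limma adjusted p = 0.544) and -0.36 (SE 0.33, adjusted p = 0.604), which became -0.10 and 0.0055 without naive 2 and -0.84 and -0.74 without naive 1.

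Biglycan, the closest relative of decorin, differed in another direction among the naive cultures, being highest in naive 3. Bgn (ENSMUSG00000031375, chromosome X, 73483602 to 73495933) stood at 14.65, 14.44 and 15.23 in naive, 14.15, 14.58 and 14.14 in non-primed and 14.13, 14.67 and 14.47 in primed libraries. The groups overlapped, since naive 2 lay below non-primed 2, primed 2 and primed 3. The differences from naive cultures were -0.48 (SE 0.23, 95% interval -1.01 to 0.05, limma adjusted p = 0.372) for non-primed and -0.35 (SE 0.23, 95% interval -0.89 to 0.18, adjusted p = 0.469) for primed cultures. Without naive 3 they were -0.25 and -0.12.

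Asporin, a collagen-binding protein that holds back transforming growth factor beta signalling, had the most uneven naive values of the set. Aspn (ENSMUSG00000021388, chromosome 13, 49544443 to 49567565) stood at 10.39 in naive 1, 12.35 in naive 2 and 13.77 in naive 3. Non-primed libraries stood at 11.31, 11.19 and 11.28 and primed libraries at 11.22, 11.29 and 11.21. The 6 injected libraries thus fell within a range of 0.12, inside a naive range of 3.38. The ratio of these ranges was 28.2, and 0 of the 15623 tested genes had a higher one, where the median was 1.22. The naive SD of Aspn, 1.70, exceeded that of 99.6% of tested genes, and its SD within the injected groups, 0.0535, that of 9.63%. Since the naive libraries differ so much, the differences from naive cultures had wide intervals, at -0.91 (95% interval -2.43 to 0.61, limma adjusted p = 0.562) for non-primed and -0.93 (95% interval -2.45 to 0.59, adjusted p = 0.505) for primed cultures. Without naive 1 these were -1.80 (adjusted p = 0.0775) and -1.82 (adjusted p = 0.073), and without naive 3 they were -0.11 and -0.13. Primed and non-primed means differed by -0.022 (SE 0.67). That SE rests on a spread shared with the naive libraries.

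**Figure D3:**
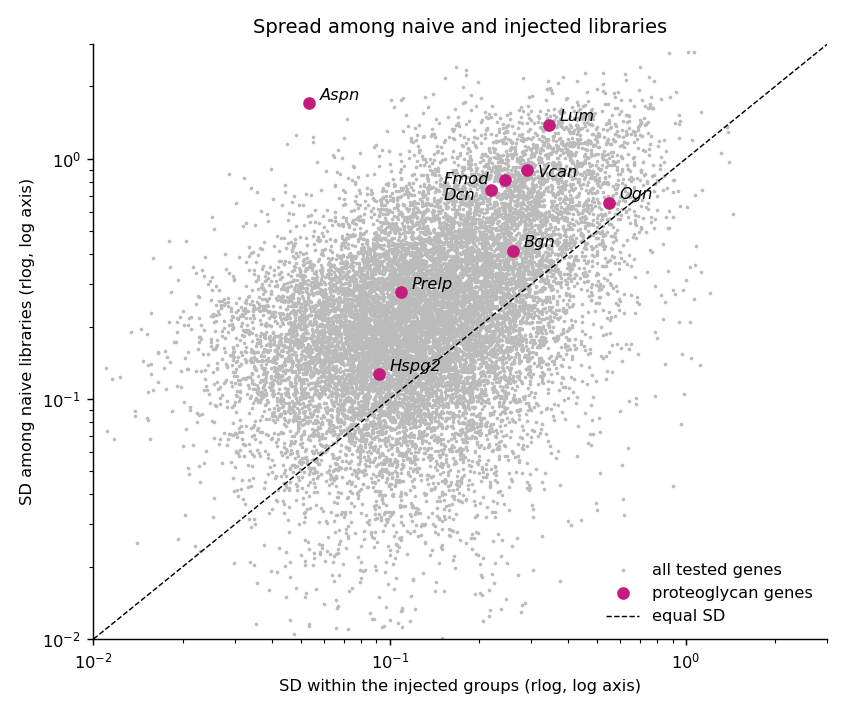
SD among the 3 naive libraries against the SD within the injected groups for all 15623 tested genes, in grey, and the 9 tested proteoglycan genes, on log axes. The dashed line marks equal SD, and Aspn stands at 1.70 against 0.0535, while Hspg2 at 0.13 against 0.0919 and Ogn at 0.65 against 0.55 lie near the line.

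For the other members the contrast was smaller. The 6 injected libraries spanned a wider range than the 3 naive ones for Ogn (1.31 against 1.20) and Hspg2 (0.27 against 0.25), and the SD of Ogn was 0.66 in primed and 0.65 in naive libraries. The median naive SD over all tested genes was 0.22 and the median SD within the injected groups 0.13. Lum had a naive SD of 1.38, above that of 98.6% of tested genes, Vcan of 0.90 (94.3%), Fmod of 0.82 (92.7%) and Dcn of 0.74 (91.0%). The SD of Ogn within the injected groups, 0.55, exceeded that of 97.7% of tested genes. Prelp (0.28, 60.6%) and Hspg2 (0.13, 23.3%) had naive SDs in the bulk of genes.

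In class II, lumican followed decorin. Lum (ENSMUSG00000036446, chromosome 10, 97565128 to 97572703) stood at 12.84, 15.34 and 13.10 in naive, 13.71, 13.79 and 13.76 in non-primed and 13.19, 13.73 and 14.15 in primed libraries. Naive 2 stood 2.51 above naive 1, and the non-primed libraries lay between them within 0.08 of each other. The group means were nearly level, at 13.76, 13.75 and 13.69, but the 95% interval of the non-primed difference reached from -1.32 to 1.31. Without naive 2 the differences from naive cultures were 0.79 for non-primed and 0.72 for primed cultures, short of the threshold (limma adjusted p = 0.166 and adjusted p = 0.193).

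Fibromodulin, which guides collagen fibril assembly in tendon and cartilage, was high in naive 1 and naive 2 and low elsewhere. Fmod (ENSMUSG00000041559, chromosome 1, 134037254 to 134048277) stood at 13.44, 13.80 and 12.24 in naive, 12.12, 12.28 and 12.50 in non-primed and 12.25, 12.58 and 12.83 in primed libraries. Naive 3 lay among the injected libraries and alone made the groups overlap. The difference was -0.86 (SE 0.35, limma adjusted p = 0.296) for non-primed and -0.60 (SE 0.35, adjusted p = 0.409) for primed cultures. Without naive 3 it was -1.32 (SE 0.19, adjusted p = 0.0255) and -1.06 (SE 0.19, adjusted p = 0.0486). Primed and non-primed cultures differed by 0.26 (95% interval -0.54 to 1.06), with primed higher in 3 of 3 same-numbered pairs. A fit of these 2 groups alone with the number as a block, chosen after seeing the data, gave an SE of 0.0612 and an adjusted p = 0.485. Against naive cultures the differences were -0.54 and -0.28 without naive 2 and the second was -0.46 without naive 1.

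Prolargin, which anchors basement membranes to the underlying collagen, was the only tested member without overlap between injected and naive cultures, a count near the background. Prelp (ENSMUSG00000041577, chromosome 1, 133910304 to 133921414) stood at 11.71, 11.26 and 11.77 in naive libraries, at 10.72, 10.89 and 10.89 in non-primed and at 11.16, 11.08 and 10.92 in primed ones. All 6 injected libraries lay below all 3 naive ones, as in 834 of the 15623 tested genes (5.34%), and all primed libraries lay above all non-primed ones. The difference from naive cultures was -0.74 in non-primed (SE 0.14, 95% interval -1.06 to -0.43, limma adjusted p = 0.0821) and -0.53 in primed cultures (SE 0.14, 95% interval -0.84 to -0.22, adjusted p = 0.151), neither past the threshold. Without naive 2, the lowest naive library, the differences were -0.90 (adjusted p = 0.0105) and -0.69 (adjusted p = 0.0131). Over 17 alternatives the adjusted p ran from 0.0105 to 0.321 for non-primed and from 0.0131 to 0.492 for primed cultures. The moderated F test over the 3 groups gave an adjusted p = 0.138 for Prelp, the smallest of the 9 genes, where 0.0704% of tested genes passed. Primed exceeded non-primed cultures by 0.22 (SE 0.14, 95% interval -0.09 to 0.53, adjusted p = 1.0). That SE too rests on a spread shared with the naive libraries, and the limma fit of these 2 groups alone with the block gave 0.0838 (adjusted p = 0.505).

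Osteoglycin, the class III member, varied within every group. Ogn (ENSMUSG00000021390, chromosome 13, 49608046 to 49624501) stood at 13.74, 14.94 and 14.78 in naive, 14.25, 13.46 and 13.76 in non-primed and 14.42, 13.11 and 13.59 in primed libraries. Naive 1 lay among the injected libraries, and in both injected groups library 1 was highest and library 2 lowest. The differences from naive cultures were -0.66 (SE 0.40, limma adjusted p = 0.485) and -0.78 (SE 0.40, adjusted p = 0.359). They were -1.03 and -1.15 without naive 1 and -0.43 and -0.55 without naive 2.

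Neighbouring genes were compared within their clusters. On chromosome 13, Ecm2, Aspn, Omd and Ogn follow each other on the plus strand. Omd, which encodes osteomodulin, a keratan sulfate proteoglycan of bone, lies 15223 bases before Ogn and stood at 9.30, 11.45 and 10.56 in naive, 9.62, 8.47 and 9.24 in non-primed and 9.86, 8.17 and 8.88 in primed libraries. It rose and fell library by library with Ogn, also within the injected groups (Pearson r = 0.97 over 9 libraries). Aspn, 40480 bases from Ogn, shared the lower naive 1 but not the ups and downs among injected libraries (r = 0.67 with Ogn over 9 libraries and 0.08 over the 6 injected ones). All 4 genes were lower in naive 1 than in naive 2 and naive 3, and Ecm2 was highest in naive 2, at 9.86 against 7.22 to 8.13 elsewhere.

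On chromosome 10, Dcn and Lum lie 46984 bases apart, followed by Kera and Epyc, which were low, at 3.85 to 5.71 and 3.56 to 5.63. Dcn and Lum had the highest correlation of any 2 tested members over the 9 libraries (r = 0.81, and 0.88 over the 6 injected ones). Over the injected libraries alone, Dcn and Fmod, on different chromosomes, were as alike (r = 0.90, and 0.51 over 9). On chromosome 1, Prelp and Fmod lie 115839 bases apart on opposite strands, and their likeness was weaker (r = 0.37), since Fmod was low and Prelp high in naive 3. Optc, next to Prelp, stood at 3.90 to 4.68. These correlations are descriptions over few libraries that share their normalisation, and naive 2 and naive 3 carry much of the spread.

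**Figure D4:**
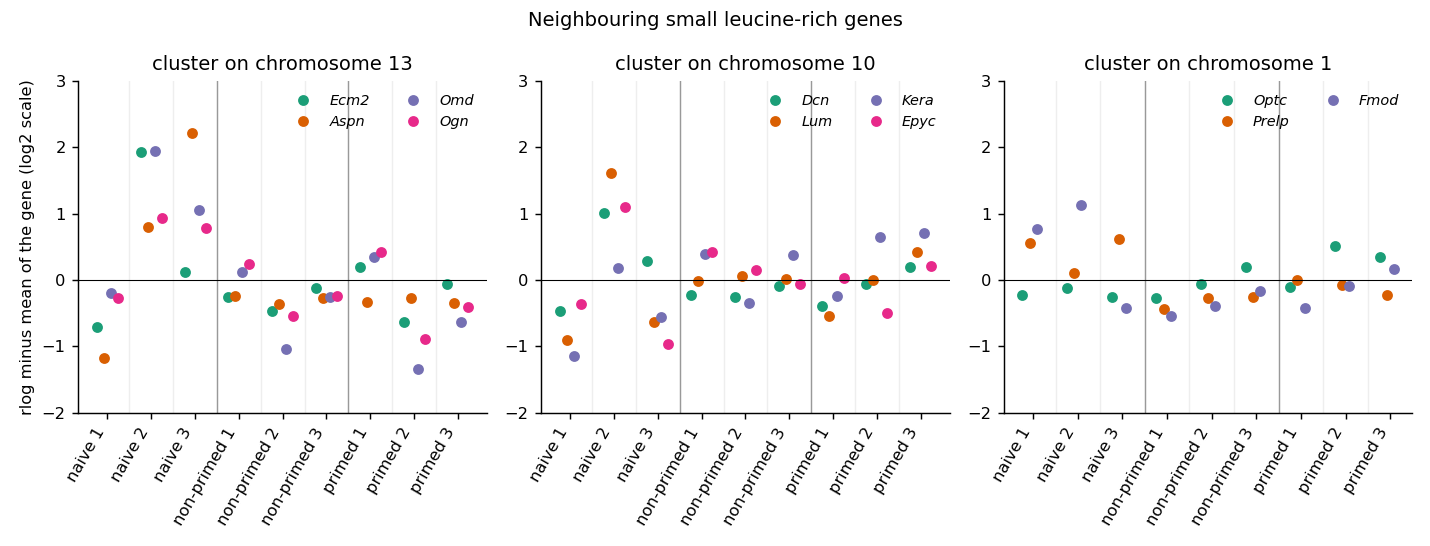
Rlog of neighbouring small leucine-rich genes minus the mean of each gene over the 9 libraries (log2 scale), in the clusters on chromosomes 13, 10 and 1. Each point is a gene in a library and grey lines divide the groups. Omd and Ogn lie on the same side of their means in every library, whereas Aspn stays within a range of 0.12 in the injected libraries.

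Across clusters, the members did not vary as a block. Vcan and Fmod were alike over 9 libraries (r = 0.72), both low in naive 3, but not over the 6 injected ones (0.15). Bgn and Prelp were alike (0.72, and 0.17 over the injected ones). Vcan and Aspn ran opposite (-0.51), naive 3 being the lowest of the 9 for Vcan and the highest for Aspn. The genes most like each member over the 9 libraries included Timp1, an inhibitor of matrix proteases, and Prr36 for Vcan (r = 0.95 and 0.96), G0s2, an inhibitor of fat breakdown, and Adgrb1 for Fmod (0.97 each), Susd5 and Clstn2 for Lum (0.97 and 0.96), Enpp3 and Aasdh for Dcn (0.95 and 0.96), and Tm7sf3 and Wdcp for Aspn (0.97 each). For Prelp they were Vamp5 and Nudt9 (0.97 each), for Ogn Zfp763 and Zcchc3 (0.98 and 0.97), for Bgn Aldh1a7 and Peak1 (0.96 each) and for Hspg2 Wnt10b and Ddx11 (0.94 and 0.91). Between 5 and 101 tested genes had r above 0.9 with a given member, the fewest for Hspg2 and the most for Aspn.

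Other genes of proteoglycan biology were taken from 8 lists with 147 genes, 128 of them tested. A single gene passed in any comparison, Esm1, which encodes the small dermatan sulfate proteoglycan endocan. It stood at 9.40, 10.27 and 8.93 in naive, 6.31, 5.64 and 6.49 in non-primed and 6.24, 6.11 and 6.77 in primed libraries, and fell by 3.38 (SE 0.36, limma adjusted p = 0.0303) and by 3.16 (SE 0.36, adjusted p = 0.0345). The call in non-primed cultures was lost without non-primed 1, 2 or 3 (adjusted p = 0.209, 0.152 and 0.211), without primed 2 or 3 (adjusted p = 0.0568 and 0.0616) and with the replicate block (adjusted p = 0.0501). The call in primed cultures was lost without the same libraries (adjusted p = 0.107, 0.0741 and 0.102 for the non-primed and 0.179 and 0.119 for the primed ones). Both calls were also lost with no filter (adjusted p = 0.0516 and 0.0708) and with the 2 groups alone (adjusted p = 0.0604 and 0.267), and the second with no variance trend (adjusted p = 0.0586). Over all alternatives the difference stayed between -3.68 and -3.02 for non-primed and between -3.46 and -2.79 for primed cultures.

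Of the 18 tested of 23 other matrix proteoglycans and leucine-rich relatives, 9 were higher and 9 lower in non-primed and 10 higher and 8 lower in primed cultures (medians 0.01 and 0.05). At an unadjusted p below 0.05 in limma there were 4 and 6 of the 18 (15.4% and 16.9% of all tested genes). Esm1 was 1 of these in both comparisons. Bcan, the brain hyaluronan-binding relative of Acan, differed by 0.80 (SE 0.19, adjusted p = 0.133) and 0.60 (SE 0.19, adjusted p = 0.198) from a naive mean rlog of 3.08, and Podn, a class V relative, by 1.02 in non-primed cultures (SE 0.38, adjusted p = 0.25). Chadl differed by -0.41 in primed cultures (adjusted p = 0.237).

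Cell-surface proteoglycans had 14 of 17 genes tested, with 6 higher and 8 lower in both comparisons (medians -0.08 and -0.06). The glypican Gpc6 differed by -0.42 and -0.43 without overlap (limma adjusted p = 0.257 and adjusted p = 0.233), and Gpc1 by 0.33 (adjusted p = 0.277) and 0.225 (adjusted p = 0.401). Gpc4 differed by -0.34 in non-primed cultures (adjusted p = 0.458) and the chondroitin sulfate proteoglycan Cspg4 by -0.57 in primed cultures (adjusted p = 0.405). None of the 14 passed in limma, with 2 and 1 at an unadjusted p below 0.05, and no gene of the lists that follow passed either. For all these counts at an unadjusted p below 0.05, the share over all tested genes was 15.4% in non-primed and 16.9% in primed cultures.

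Among enzymes that start the sugar chain or supply its sulfate, 14 of 16 tested genes (18 listed) were higher in each comparison, with medians of 0.15 and 0.10. Over all tested genes 8071 and 7780 of 15623 were higher. In this list 2 and 3 genes had an unadjusted p below 0.05, near the shares over all tested genes. Xylt2, a xylosyltransferase that begins the chain on the core protein, stood at 10.09, 10.38 and 9.88 in naive, 10.47, 10.64 and 10.42 in non-primed and 10.64, 10.88 and 10.50 in primed libraries. All injected libraries lay above the naive ones, by 0.40 (SE 0.14, limma adjusted p = 0.244) and 0.56 (SE 0.14, adjusted p = 0.15), and the latter passed without naive 2 (0.69, adjusted p = 0.0444). B4galt7, which adds the next sugar, differed by 0.37 (adjusted p = 0.216) and 0.36 (adjusted p = 0.212). Ugp2, an enzyme of sugar nucleotide supply, differed by 0.34 in non-primed cultures (adjusted p = 0.37), and Slc35b2, which carries the sulfate donor into the Golgi apparatus, by 0.32 in primed cultures (adjusted p = 0.205). Between primed and non-primed cultures the groups of B3gat3, which completes the linkage, did not overlap, with a difference of 0.12 (adjusted p = 1.0).

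Chondroitin and dermatan sulfate enzymes split evenly, with 8 of 15 tested genes (16 listed) higher and 7 lower in each comparison (medians 0.0088 and 0.02, with 2 and 1 at an unadjusted p below 0.05). Csgalnact1, which starts the chondroitin chain, differed by 0.65 (SE 0.21, limma adjusted p = 0.216) in non-primed and 0.48 (SE 0.21, adjusted p = 0.302) in primed cultures, and the sulfotransferase Chst7 by -0.58 and -0.64 (adjusted p = 0.245 and adjusted p = 0.206). Ust differed by -0.43 in non-primed cultures (adjusted p = 0.336) and Chsy1, a chain polymerase, by 0.22 in primed cultures (adjusted p = 0.332). The sulfotransferase Chst15 was 0.21 higher in primed than in non-primed cultures without overlap (adjusted p = 1.0).

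Heparan sulfate enzymes had 12 and 11 of 18 tested genes (22 listed) lower, with medians of -0.09 and -0.14, and 4 in each comparison had an unadjusted p below 0.05. The sulfotransferase Hs6st1 differed by -0.39 in non-primed cultures (limma adjusted p = 0.188). Ndst1, which begins the sulfation of the chain, differed by -0.36 (adjusted p = 0.25) and -0.41 (adjusted p = 0.201), and Hs3st3a1 by -0.55 (adjusted p = 0.255) and -0.63 (adjusted p = 0.205) from a naive mean rlog of 4.64. The polymerase Ext2 differed by 0.27 in primed cultures (adjusted p = 0.151). The 5 tested keratan sulfate genes of 8 had 3 higher and 2 lower in each comparison, with medians of 0.22 and 0.20, and Chst1, a keratan sulfotransferase, differed by -0.87 and -0.61 (adjusted p = 0.247 and adjusted p = 0.366). B4galt1 differed by 0.36 and 0.31 (adjusted p = 0.266 and adjusted p = 0.296) and B4galt4 by 0.28 and 0.25 (adjusted p = 0.426 and adjusted p = 0.43). In this list 2 genes and 1 gene had an unadjusted p below 0.05.

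All 13 genes of proteases that cut proteoglycans, with their inhibitor Timp3, were tested, and 7 were higher and 6 lower in each comparison (medians 0.0055 and 0.15), with 2 and 3 at an unadjusted p below 0.05. Adamts5, the main aggrecanase of mouse cartilage, stood at 12.78, 12.58 and 13.05 in naive, 13.44, 13.69 and 13.60 in non-primed and 13.02, 13.67 and 13.43 in primed libraries. Every non-primed library exceeded every naive one, with a difference of 0.77 (SE 0.18, limma adjusted p = 0.13), and primed 1 fell among the naive libraries (0.57, SE 0.18, adjusted p = 0.196). Adamts9, which cuts versican, went the other way, at 9.36, 10.22 and 9.99 in naive, 9.11, 9.02 and 8.87 in non-primed and 8.87, 8.87 and 9.33 in primed libraries. All 6 injected libraries lay below naive, with differences of -0.86 (SE 0.22, adjusted p = 0.15) and -0.83 (SE 0.22, adjusted p = 0.152), and without naive 1 the first was -1.11 (adjusted p = 0.0428). Mmp14 differed by 0.34 in non-primed cultures (adjusted p = 0.405) and Adamts4, another aggrecanase, by -0.31 in primed cultures (adjusted p = 0.251). Mmp2 was 0.30 higher in primed than in non-primed cultures without overlap (SE 0.20, adjusted p = 1.0).

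Of 32 matrix partners 29 were tested, with 16 higher and 13 lower in non-primed and 14 higher and 15 lower in primed cultures (medians 0.11 and -0.0021). Their differences ran from -3.16 to 0.96 and from -2.88 to 0.78, and 8 and 6 had an unadjusted p below 0.05. Fgf2, a growth factor that perlecan binds, stood at 11.06, 10.23 and 10.57 in naive, 9.23, 8.69 and 9.58 in non-primed and 9.17, 9.07 and 9.17 in primed libraries. Its differences of -1.45 (SE 0.25, limma adjusted p = 0.0672) and -1.49 (SE 0.25, adjusted p = 0.0811) missed the threshold, and both passed without naive 2 (-1.65, adjusted p = 0.0187, and -1.68, adjusted p = 0.0162) and the second with the replicate block (adjusted p = 0.0483). Fbln1, a matrix glycoprotein that versican binds, differed by -0.72 in non-primed cultures (SE 0.20, adjusted p = 0.164) and by 0.26 between primed and non-primed cultures without overlap (adjusted p = 1.0), and Has1, a hyaluronan synthase, by -0.80 and -0.85 (adjusted p = 0.173 and adjusted p = 0.152) from a naive mean rlog of 5.17. Hapln3, a link protein, differed by 0.58 in primed cultures (adjusted p = 0.141).

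**Figure D5:**
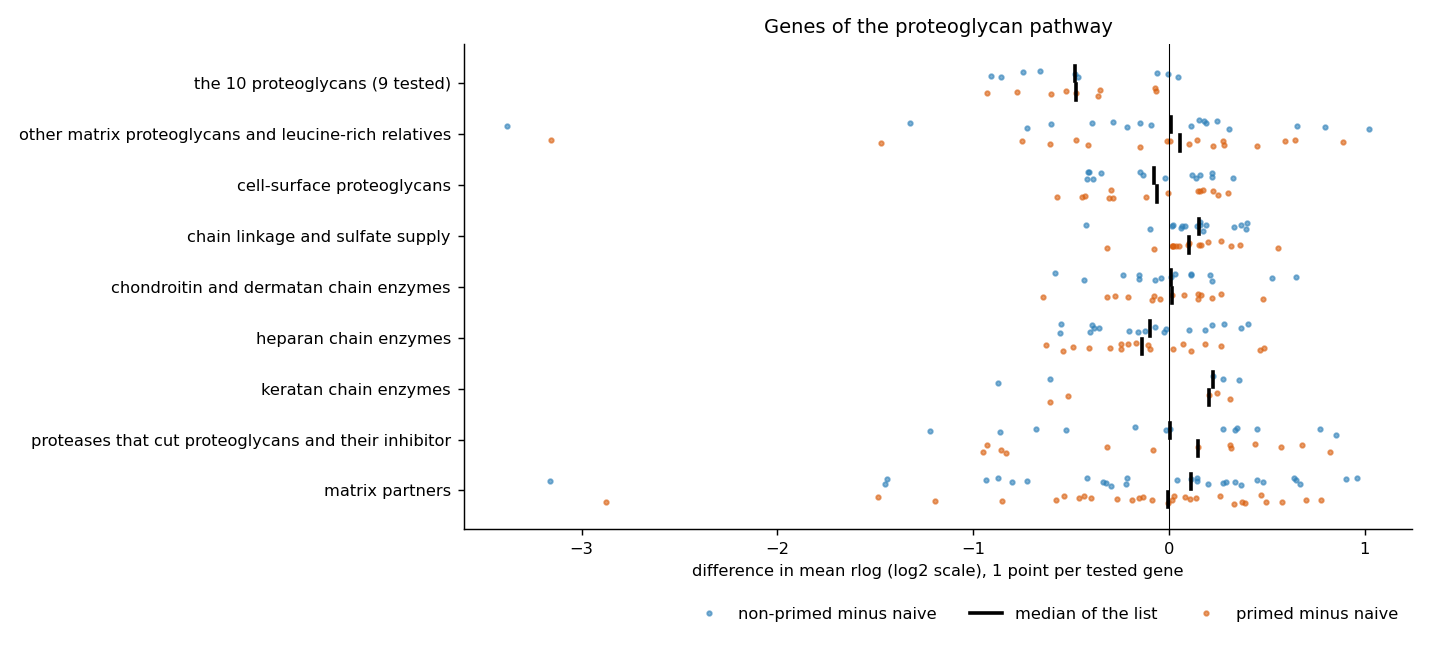
Difference in mean rlog (log2 scale) from naive cultures for every tested gene of the proteoglycan set and of the 8 other lists, in non-primed (blue) and primed (orange) cultures, with the median of each list as a black bar. Points are spread vertically within a row only to keep them apart. The 9 tested proteoglycan genes lie between -0.93 and 0.05 with medians of -0.48 and -0.47, and the leftmost point, at -3.38, is Esm1 in non-primed cultures.

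Marker lists for other cells of the paw moved with some of these values, and their part in the results was not tested. In bulk cultures, fewer cells of a type and less RNA per cell cannot be told apart. The summed fibroblast markers stood at 17.39 to 17.83 in naive, 17.62 to 17.78 in non-primed and 17.48 to 17.76 in primed libraries. The 12 cartilage genes, 7 of them tested, summed to 10.79 to 12.32 in naive, 9.45 to 9.89 in non-primed and 9.45 to 10.70 in primed libraries. The naive and injected sums did not overlap, but naive 1 (10.79) and primed 1 (10.70) lay close together. Of the 7 tested genes 5 were lower in non-primed (median difference -0.61) and 6 in primed cultures (median -0.58), none past the threshold. Cnmd, chondromodulin, was the highest of these genes in the naive libraries and so weighed most in their sums, at 9.99, 11.86 and 11.34. It stood at 6.73 to 10.08 in injected libraries and overlapped, since primed 1 (10.08) lay above naive 1 (9.99). Col9a3, a cartilage collagen chain, was lower in every injected library (4.41 to 4.92) than in every naive one (5.05 to 6.16). Sox9, the transcription factor of cartilage cells, stood at 7.54 to 9.14 in naive and 7.36 to 8.04 in injected libraries, and Col2a1 at 6.32 to 8.63 over all 9. Matn1 (0.20 to 0.49) was near 0 and Snorc at 0 in all 9 libraries.

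The 5 tendon genes summed to 12.78 to 14.28 in naive, 14.10 to 14.70 in non-primed and 14.33 to 14.62 in primed libraries. Most of that sum was Thbs4, at 12.30 to 13.90 in naive and 13.94 to 14.60 in injected libraries, while 3 of the 5 genes were lower in each comparison (median differences -0.17 and -0.34). The 6 bone genes, 4 of them tested, summed to 9.04 to 10.13 over all groups.

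The 14 macrophage genes summed to 13.47, 15.80 and 13.12 in naive libraries 1 to 3, against 15.84 to 16.34 in non-primed and 15.62 to 16.84 in primed libraries. All 14 were higher in each injected group, none past the threshold. Without overlap 8 were higher in non-primed and 3 in primed cultures (11.6% and 8.97% of all tested genes). Naive 2, the naive library nearest the injected ones in these genes and in Prelp, was the one with the highest Lum and Dcn. The 7 mural and smooth muscle genes summed to 12.78, 11.96 and 14.53 in naive libraries 1 to 3 and to 12.97 to 13.85 in injected libraries. That sum followed the contractile gene Acta2 (12.61, 11.24 and 14.46 in naive libraries 1 to 3). Myh11 and Cnn1 were likewise highest in naive 3, where Aspn was highest too, but Rgs5 (8.97, 10.34 and 7.59), Abcc9 and Des were lowest there among the naive libraries.

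The 10 skeletal muscle genes, 4 of them tested, summed to 7.003 to 7.21 in naive, 7.69 to 8.59 in non-primed and 7.28 to 8.83 in primed libraries, and 4 of 4 were higher in each injected group (median differences 1.14 and 1.14, none past the threshold). The 8 adipocyte genes, 5 of them tested, summed to 11.07, 11.16 and 10.03 in naive libraries 1 to 3, high in naive 1 and 2 and low in naive 3 as Fmod was, and to 10.18 to 10.58 in injected libraries. Of the 5, 5 were lower in non-primed (median -2.10) and 4 in primed cultures (median -1.53), none past the threshold. Endothelial genes summed to 7.43 to 9.54 over the 9 libraries. None of the 6 lymphocyte genes reached the filter, and Cd3e and Cd3g were at 0 in all 9 libraries.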

How the data were processed

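RNA of cultured synovial fibroblasts was sequenced in 9 libraries, 3 per group, with groups taken from the sample titles and columns matched through the sample descriptions. The tools named in the submitters' processing notes are featureCounts of Subread 1.6.1, cutadapt 2.5, DESeq2 and STAR 2.5.4a, with the build GRCm38. The authors deposited rlog values on the log2 scale, scaled for library size and drawn together for genes with few reads. For annotation release, strand and rlog settings nothing is given in the sources used here. The depth is unknown, and overlapping genes are uncertain.

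Symbols, from a table of identifiers, matched 47224 of 47729 genes. Coordinates and exonic lengths are those of GENCODE M21. Of 27757 genes that varied, 15623 had a mean rlog of at least 3 and were tested with limma 3.58.1 in R 4.3.3, with 1 mean per group, 6 residual degrees of freedom, a variance trend and Benjamini-Hochberg adjustment, two-sided. The script was tested on simulated data. Members and lists were chosen with earlier results of these data known. The 240 list genes gave 239 matches, 1 of them through a synonym. From each list the text names genes past the threshold and otherwise up to 3 with the smallest p-values. Those of primed against non-primed cultures are named only where groups did not overlap. Per member the 2 tested genes most like it are named, leaving out provisional symbols (numbered Gm genes, Rik and clone names). Genes in a member's chromosome cluster are also given.

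Deviations of same-numbered primed and non-primed libraries from their group means had r = 0.418, 0.608 and 0.100 over all tested genes, so these libraries may be paired. Primed and non-primed libraries with different numbers ran from -0.497 to 0.275. The highest of these, non-primed 3 with primed 1, exceeded the third same-numbered pair. Same-numbered pairs with naive libraries ran from -0.160 to 0.152. Alternatives changed the filter, trend, prior, weights, scaling, block, groups in the fit or left out a library.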

Additional observations from a re-analysis of the deposited data

How the results depend on the processing

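Of the differences of the 9 tested genes under 17 or 18 alternatives each, 438 kept direction and side of the threshold, 9 passed newly and 21 changed sign without passing. Sample weights ran from 0.133 (naive 3) to 10.4 (non-primed 1). With them 621 of all 15623 tested genes passed in non-primed and 733 in primed against naive cultures, and 2109 in primed against non-primed. Among the members the weights gave Prelp -0.86 (limma adjusted p = 0.0136) and -0.67 (adjusted p = 0.028) and Fmod -1.22 (adjusted p = 0.03) against naive cultures. Between primed and non-primed cultures they gave Fmod 0.60 (adjusted p = 0.0194) and Bgn 0.29 (adjusted p = 0.04997). The other 4 newly passed without naive 2 (Prelp) or naive 3 (Fmod), as given above. The replicate block changed no call of these 9 genes.

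With weights the sign turned for Dcn in primed against naive (0.22), Aspn in non-primed (0.155) and primed (0.073), Lum in non-primed (0.32), primed (0.66) and primed against non-primed (0.34), and Ogn in non-primed against naive cultures (0.0446). Without single libraries, non-primed against naive turned for Vcan without naive 1 (0.25) or naive 2 (0.14, range -0.58 to 0.25), Hspg2 without naive 2 (-0.0196) or non-primed 2 (-0.0033, range -0.0196 to 0.11), and Lum without naive 2 (0.79) or non-primed 1 (0.015, range -0.47 to 0.79). Primed against naive turned for Dcn without naive 2 (0.0055, range -0.74 to 0.0055) and Lum without naive 2 (0.72) or primed 1 (0.18, range -0.53 to 0.72). Primed against non-primed turned for Dcn without primed 3 (-0.0391, range -0.0391 to 0.26), Aspn without non-primed 1 (0.0024, range -0.0576 to 0.0024), Lum without primed 1 (0.19, range -0.30 to 0.19), and Ogn without non-primed 1 (0.0956) or primed 2 (0.18, range -0.47 to 0.18). The cause was not tested.

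The number of genes past the threshold was 22 for non-primed and 16 for primed against naive, 0 for primed against non-primed and 11 for any difference among groups. It was 0 in each with no filter, 5, 0, 0 and 0 with no variance trend, and 621, 733, 2109 and 2485 with sample weights. With the 2 groups alone the first comparisons gave 7 and 0, a robust prior gave 13 and 13, and the replicate block gave 17 (5 of them among the 22) and 51 (13 among the 16), 0 and 11. Without single libraries the numbers ran from 0 to 355, 0 to 356, 0 to 0 and 0 to 217. Those for non-primed and primed against naive cultures were 83 and 56 without naive 1, 355 and 356 without naive 2, 266 and 196 without naive 3, 48 and 58 without primed 1, 1 and 1 without primed 3, and 0 without primed 2 or any non-primed library. List medians moved in 29 instances and did not in 379. With sample weights Fgf2, Adamts5, B4galt7 (both against naive), Bcan, Fbln1, Mmp14 (non-primed against naive) and Chst15 (primed against non-primed) also passed.

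With 3 libraries per group, 1 naive library can decide a member's call. Read counts were not used here, so the precision of low values such as those of Acan is unknown.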
